A study of Mus musculus with 8 samples.

Results

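Mitochondrial ribosomal proteins were followed through RNA sequencing libraries of the left ventricles (LVs) of 8 mice. The members are the genes whose symbol is Mrpl or Mrps followed by a number and at most 1 letter, with a CPM (counts scaled to the library total) of 1 or more in 2 or more libraries. Of 78 rows of the count table with such a symbol, 76 met this condition, out of 46040 genes in the table and 13542 genes tested. The other 2 rows, Mrpl53 and a second entry of Mrps23 (ENSMUSG00000098375), had 0 counts in every library. Members were far from this limit, with 5.11 normalised CPM as their lowest value in any library. Of the 790 exon bases of Mrpl53, 695 are shared with Gm42688, a gene model on the same strand. Of the 76 members, 26 belong to the small subunit and 49 to the large subunit. The remaining member, Mrps36, was first described as a small subunit protein and is now placed in the mitochondrial 2-oxoglutarate dehydrogenase complex.

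The mitochondrial ribosome translates the few proteins that mitochondria encode themselves, all of which are core subunits of the respiratory chain and the ATP synthase. Its ribosomal RNAs come from the mitochondrial genome, but each of its proteins is encoded in the nucleus, made in the cytosol and imported. Many of these proteins have a bacterial relative, and others occur only in mitochondria. Heart muscle draws most of its ATP from oxidative phosphorylation (OXPHOS), and inherited defects of single mitochondrial ribosomal proteins, MRPL3 and MRPL44 among them, cause cardiomyopathy in humans.

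The study asked how the hypertrophic LV differs when VEGFR-1, a receptor for VEGF-A, VEGF-B and PlGF encoded by Flt1, has no tyrosine kinase activity. One group held VEGFR-1 TK-/- mice, whose germline Flt1 allele lacks the tyrosine kinase domain, and the other held their littermate controls. All mice were males of the strain C57BL/6 by the labels and methods, were 5 to 7 months old and received angiotensin II (angII) at 0.1 mg/kg/h from implanted pumps, and RNA was taken on day 14. No group without angII was analysed here. Each group had 4 libraries, and replicates are separate samples by their labels. The labels contradict each other: the genotype tag and the library name give one genotype for each sample, and the sample title gives the other. Libraries were grouped by tag and library name and are named for those labels, the first group control-tagged and the second TK-/- -tagged. If the titles are right, every sign given here reverses, so no difference below is assigned to a genotype.

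Factors such as NRF1, the ETS family and YY1 are known to bind the promoters of many genes of mitochondrial proteins. The following stretches are shown because they carry features that a larger share of the members than of other genes had, a start site back to back with another gene or a motif of such a factor. All are from RefSeq on GRCm38.p6. The first is the whole sequence between the RefSeq start sites of Mrps11 (plus strand) and Mrpl46 (minus strand), a small and a large subunit gene transcribed away from each other, at chr7:78783090-78783130. The others are the 120 bases before the start of Mrpl22 (chr11:58171544-58171663, plus strand), Mrpl17 (chr7:105811088-105811207, minus strand) and Mrps26 (chr2:130563637-130563756, plus strand). Capitals mark the NRF1 motif in Mrpl22 and Mrpl17 and the ETS motif, read on the opposite strand, in Mrps26.
Mrps11 and Mrpl46: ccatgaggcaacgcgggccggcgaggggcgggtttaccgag
Mrpl22: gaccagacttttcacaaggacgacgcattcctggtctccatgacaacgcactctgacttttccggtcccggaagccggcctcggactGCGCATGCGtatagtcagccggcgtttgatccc
Mrpl17: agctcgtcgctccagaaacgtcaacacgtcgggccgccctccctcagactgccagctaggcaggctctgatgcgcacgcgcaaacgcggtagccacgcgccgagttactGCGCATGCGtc
Mrps26: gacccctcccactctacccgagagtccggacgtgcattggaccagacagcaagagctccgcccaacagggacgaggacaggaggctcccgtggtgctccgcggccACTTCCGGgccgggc

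A promoter window of 300 bases, from 250 before to 50 after the RefSeq start, was found for 67 of the 76 members. Each motif was searched as exact letters on both strands. The NRF1 letters GCGCATGCG stood in the windows of 7 members (10.4%), against 3.96% of the tested genes with a window and 1.75% of all 32851 windows. The ETS letters CCGGAAGT stood in those of 12 members (17.9%, against 8.67% and 3.89%), and the YY1 letters AAGATGGCG in those of 8 (11.9%, against 3.47% and 1.40%). Together, 26 members (38.8%) held at least 1 of the 3, against 15.1% of the tested genes. The members' windows had a median GC content of 58.3%, against 52.7% over all windows. The shares were not compared at like GC content. A match describes the letters in the window and is not a measured binding site.

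The libraries held 11449137 to 16239670 counts on genes, and the members took 0.471% to 0.600% of them, with 76 to 4936 counts per member and library. Values below are normalised CPM, the CPM after TMM scaling of library size, and log2 fold changes set the TK-/- -tagged group against the control-tagged group. Flt1 itself had a log2 fold change of 1.19 (SE 0.12, FDR = 0.00808, edgeR's quasi-likelihood test) and was the one gene called in the whole table. Counts over the whole gene do not separate transcripts with and without the kinase domain. Control-tagged replicate 3 stood apart. The deviations of the 76 members from their own means spread with an SD of 0.32 (log2) in that library, against 0.084 to 0.13 in the other 7. The 7946 genes in the members' range of levels spread with an SD of 0.30 in that library and of 0.15 to 0.24 in the others. The members' main results and many single members are therefore also given without it. Where no library is said to be left out, values are from all 8 libraries.

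No member was called between the groups. With edgeR's quasi-likelihood test, a call needed an FDR (Benjamini-Hochberg adjusted p over all 13542 genes) under 0.1 and a difference of 1.5-fold or more in either direction. The share of all genes called was 0.00738%. The lowest FDR among the members was 0.453, and the largest absolute log2 fold change was 0.44. The likelihood ratio test and DESeq2 also called 0 members. At an unadjusted p under 0.05, 12 members passed in the quasi-likelihood test, 11 in the likelihood ratio test and 13 in DESeq2. All 12 had higher means in the TK-/- -tagged group, and 3.32% of all genes passed this p in that direction.

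The members leaned one way as a list. Of 76, 67 (88.2%) had a log2 fold change above 0, against 49.7% of all genes tested. Their median was 0.162, a fold of 1.12, where the median of all genes was -0.0012. Over the 7946 genes in the same range of levels, 50.5% were above 0 and the median was 0.0017. Single members lay between -0.14 for Mrps17 and 0.44 for Mrps31, and their median SE was 0.11. Without control-tagged replicate 3, 75 of the 76 were above 0 and the median was 0.156. In bulk RNA, a difference in the number of cells that express these genes and a difference in RNA per cell cannot be told apart.

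**Figure D1:**
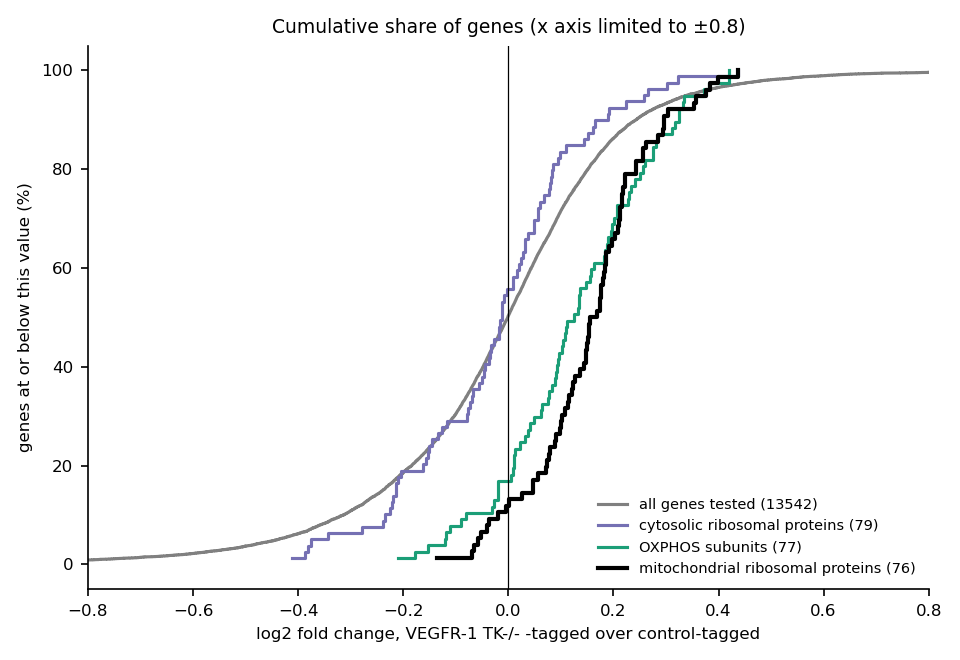
Cumulative share of genes (y axis, percent) at or below a given log2 fold change (x axis, TK-/- -tagged over control-tagged) for all genes tested, cytosolic ribosomal proteins, OXPHOS subunits and the 76 members. The members' line crosses its midpoint at 0.16 and the line of all genes at -0.0012.

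In 10 members (13.2%), every TK-/- -tagged library lay above every control-tagged library, against 2.46% of all genes and 2.69% of the genes in the same range of levels. No member showed the reverse order. None of the 10 passed the FDR. The gap between the highest control-tagged and the lowest TK-/- -tagged library ran from 0.160% of the level for Mrpl11 to 10.1% for Mrpl41. In 8 of the 10, control-tagged replicate 3 was the lowest library of all. Without that library, 10 members were without overlap, against 3.52% of all genes with 3 against 4 libraries.

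Mrps31 (ENSMUSG00000031533, chr8:22411361-22429665, plus strand), a small subunit protein with no bacterial relative, had the highest log2 fold change. Its normalised CPM in control-tagged replicates 1 to 4 was 32.3, 31.3, 23.002 and 36.4. In the TK-/- -tagged replicates, in the same order, it was 38.4, 45.8, 40.6 and 41.4. Control-tagged replicate 3 was the lowest by a wide margin, and the groups did not overlap. The means were 30.8 ± 5.61 and 41.6 ± 3.09 (SD, n = 4), and the log2 fold change was 0.44 (SE 0.13, FDR = 0.453, edgeR's quasi-likelihood test). Without control-tagged replicate 3 it was 0.32.

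Mrpl41 (ENSMUSG00000036850, chr2:24974117-24975098, minus strand) and Mrpl39 (ENSMUSG00000022889, chr16:84717576-84735742, minus strand) are large subunit proteins that occur only in mitochondria. Mrpl41 stood at 38.9, 37.5, 28.7 and 40.5 normalised CPM in the control-tagged replicates and at 47.2, 51.3, 46.9 and 44.6 in the TK-/- -tagged replicates. Its groups were the most widely separated of all members, with a log2 fold change of 0.38 (SE 0.11, FDR = 0.453, edgeR's quasi-likelihood test), and of 0.28 without control-tagged replicate 3. Mrpl39 stood at 51.9, 45.4, 45.9 and 61.2 in the control-tagged replicates and at 65.9, 68.6, 64.2 and 62.5 in the others. Here control-tagged replicate 4 came closest to the other group, and replicate 3 was level with replicate 2. The log2 fold change of Mrpl39 was 0.35 (SE 0.11), and 0.30 without replicate 3.

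Mrps36 (ENSMUSG00000061474, chr13:100735955-100744659, minus strand), the dehydrogenase component, was at 39.9, 39.3, 27.3 and 39.7 in the control-tagged replicates. The TK-/- -tagged replicates were at 42.7, 53.8, 48.7 and 44.5. Of the control-tagged libraries 3 lay within 1 normalised CPM of each other and replicate 3 lay far below them. The log2 fold change was 0.38 (SE 0.13, FDR = 0.476, edgeR's quasi-likelihood test), and 0.25 without that library. Leaving Mrps36 out of the members gave a median of 0.156 over the other 75.

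The other 6 members without overlap were proteins with smaller differences. Mrpl21, a large subunit protein with a bacterial relative, had 39.6, 41.3, 34.2 and 39.9 normalised CPM in the control-tagged replicates and 42.8, 52.9, 47.7 and 47.9 in the TK-/- -tagged replicates (log2 fold change 0.30, SE 0.097). Mrpl1, the protein of the mobile arm that deacylated tRNA passes as it leaves, had 30.8, 26.4, 21.9 and 30.1 against 32.2, 34.0, 33.6 and 34.1 (0.30, SE 0.11). The 4 TK-/- -tagged values of Mrpl1 lay within 2 normalised CPM of each other, and the spread was on the control side. Mrps5, which sits where mRNA enters the small subunit, had 39.4, 39.1, 31.8 and 42.1 against 47.4, 45.5, 42.6 and 46.6 (0.26, SE 0.10). Mrps30, named for the small subunit but found in the large one, had 41.8, 43.3, 37.9 and 43.3 against 45.02, 49.98, 47.96 and 44.8 (0.17, SE 0.086). Mrpl11 and Mrpl22 are given with their functional groups below. Without control-tagged replicate 3, the log2 fold changes of Mrpl21, Mrpl1, Mrps5 and Mrps30 were 0.25, 0.20, 0.18 and 0.13.

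**Figure D2:**
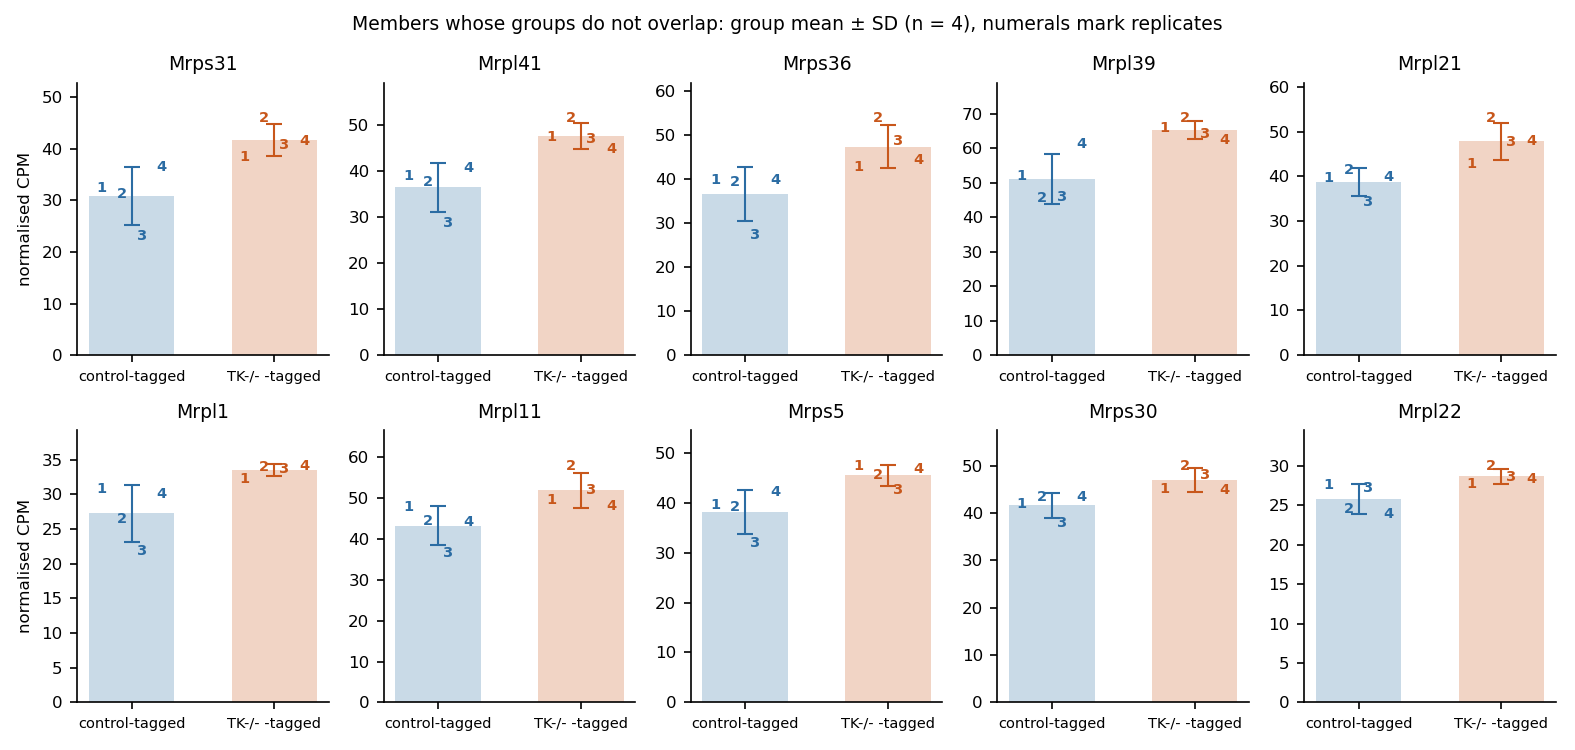
Normalised CPM (y axis, from 0) of the 10 members whose groups do not overlap, in control-tagged and TK-/- -tagged libraries. Bars are group means, error bars are SD (n = 4) and numerals mark the replicate. Control-tagged replicate 3 is the lowest library in 8 of the 10 panels.

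Both subunits leaned the same way. In the small subunit, 22 of 26 genes had a log2 fold change above 0 with a median of 0.14, and in the large subunit 44 of 49 with a median of 0.18. Of members with a bacterial relative, 39 of 45 were above 0 (median 0.15), and of members found only in mitochondria, 27 of 30 (median 0.18). Groups without overlap numbered 2 of 26 (7.69%) in the small and 7 of 49 (14.3%) in the large subunit, against 2.46% of all genes. No test of the difference between subunits or classes was made.

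**Figure D3:**
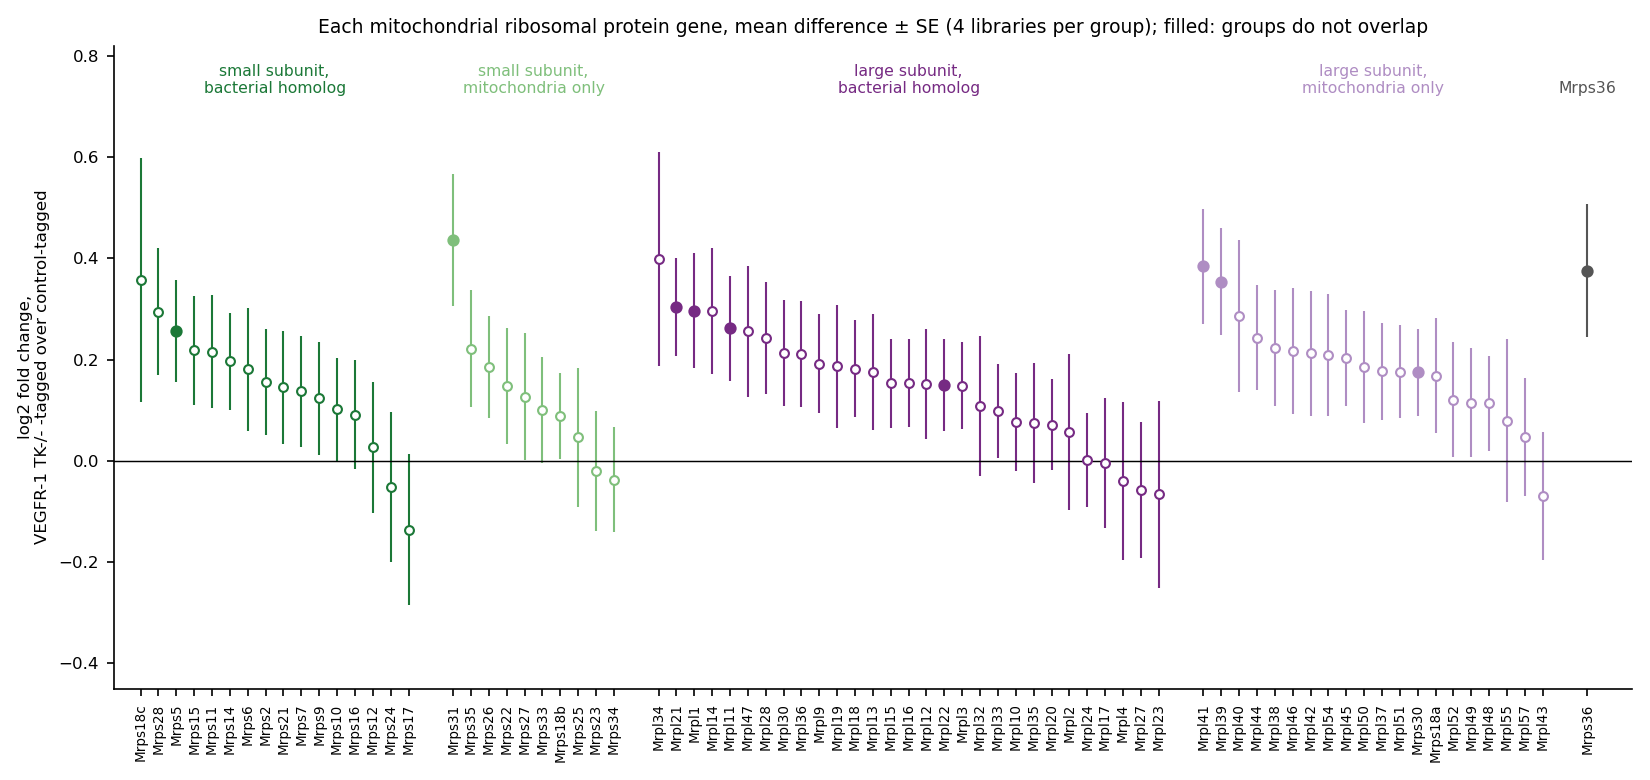
Log2 fold change (y axis, TK-/- -tagged over control-tagged) of each of the 76 members, ordered within subunit and class. Points are estimates, bars are SE from 4 libraries per group, and filled points mark the 10 members whose groups do not overlap. Of the 76 points, 67 lie above 0.

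The stalk of the large subunit recruits the translation factors that hydrolyse GTP. Its 3 members had log2 fold changes of 0.26 (SE 0.10) for Mrpl11 at the base, 0.077 (SE 0.097) for Mrpl10, the scaffold, and 0.15 (SE 0.11) for Mrpl12, the flexible part that contacts the factors. Mrpl11 had 47.9, 44.4, 36.5 and 44.2 normalised CPM in the control-tagged and 49.6, 57.9, 52.0 and 48.0 in the TK-/- -tagged replicates. Control-tagged replicate 1 came within 0.160% of the lowest library of the other group, so this lack of overlap rests on a gap far smaller than the spread within groups. Mrpl12 had 250.5, 209, 227 and 211 against 226, 290.4, 250.3 and 231, and these groups overlapped.

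The 6 members at the polypeptide exit, where the new chain meets the inner membrane, did not lean together over all 8 libraries. Mrpl47 (0.26, SE 0.13), Mrpl45 (0.20, SE 0.095), which anchors the ribosome to the membrane, and Mrpl22 (0.15, SE 0.091), which lines the tunnel, had log2 fold changes above 0. Mrpl24 was at 0.0017 (SE 0.092), Mrpl17 at -0.0043 (SE 0.13) and Mrpl23 at -0.066 (SE 0.19). The median of the 6 was 0.075. Without control-tagged replicate 3, all 6 were above 0, from 0.045 for Mrpl24 to 0.17 for Mrpl22. Mrpl22 had 27.6, 24.5, 27.2 and 23.9 normalised CPM in the control-tagged and 27.7, 30.01, 28.6 and 28.3 in the TK-/- -tagged replicates, and its groups were 0.316% apart. Mrpl17, which holds the same NRF1 letters as Mrpl22, had 49.7, 42.7, 62.5 and 42.9 against 46.7, 52.3, 53.8 and 44.6. Its highest library was control-tagged replicate 3. For members with and without the NRF1 letters the medians were 0.11 and 0.16, for ETS 0.14 and 0.17, and for YY1 0.17 and 0.15.

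The Mrps18 genes encode 3 paralogs, of which Mrps18c keeps the bacterial place in the small subunit, Mrps18b occupies another place there and Mrps18a sits in the large subunit. Their levels per kb of exon were 11.045 normalised CPM for Mrps18c, 16.4 for Mrps18b and 25.8 for Mrps18a. Mrps18c had the largest spread within groups of all members, an SD of 0.46 (log2), and Mrps18b the smallest, 0.071. The values of Mrps18c were 11.4, 11.98, 5.11 and 13.3 normalised CPM in the control-tagged and 14.5, 14.7, 10.98 and 13.1 in the TK-/- -tagged replicates. Replicate 3 was the lowest library in both groups, with 76 counts at the least, and the groups overlapped. The log2 fold change of Mrps18c was 0.36 (SE 0.24), and 0.12 without control-tagged replicate 3. Those of Mrps18a and Mrps18b were 0.17 (SE 0.11) and 0.088 (SE 0.086). Mrpl34, a small protein of the large subunit, repeated the shape of Mrps18c at a higher level. It had 60.5, 58.6, 27.4 and 47.3 against 64.4, 77.8, 52.8 and 60.3, a log2 fold change of 0.40 (SE 0.21), or 0.20 without control-tagged replicate 3.

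Mrps12, the protein of the decoding centre that sets the accuracy of translation, had 51.5, 38.8, 52.0 and 41.7 normalised CPM in the control-tagged replicates. The TK-/- -tagged replicates had 42.8, 53.6, 51.3 and 39.8, and the groups overlapped almost fully. The log2 fold change was 0.026 (SE 0.13). Mrpl3 and Mrpl44, the genes of inherited human cardiomyopathy, had log2 fold changes of 0.15 (SE 0.086) and 0.24 (SE 0.10). Mrpl3 had 118, 109, 106 and 108 against 113, 132, 125 and 120.1, and Mrpl44 62.4, 52.3, 48.2 and 56.3 against 58.0, 72.4, 65.1 and 63.9. In both genes control-tagged replicate 1 lay above TK-/- -tagged replicate 1, and the other control-tagged libraries lay below the whole other group.

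All 9 members with a log2 fold change below 0 had their highest value in control-tagged replicate 3. The lowest 5 were Mrps17 (-0.14, SE 0.15), Mrpl43 (-0.069, SE 0.13), Mrpl23 (-0.066, SE 0.19), Mrpl27 (-0.057, SE 0.13), a protein near the peptidyl transferase centre, and Mrps24 (-0.052, SE 0.15). Mrps17, whose bacterial relative binds the small subunit's ribosomal RNA early in assembly, had 74.1, 60.4, 101.5 and 64.3 normalised CPM in the control-tagged and 65.1, 74.0, 71.1 and 63.3 in the TK-/- -tagged replicates. Mrpl23 had 45.8, 31.0, 58.9 and 36.2 against 38.9, 40.1, 50.7 and 34.6. Replicate 3 was the highest library of each group for Mrpl23, while for Mrps17 the remaining 7 libraries lay between 60.4 and 74.1. Without control-tagged replicate 3, all 5 had log2 fold changes above 0, from 0.043 for Mrps17 and Mrpl43 to 0.12 for Mrpl23.

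Control-tagged replicate 3 was thus low for some members and high for others. It was the lowest library for 31 members and the highest for 12, of which 8 belong to the large subunit. Deviations in that library ran from -1.13 for Mrps18c to 0.52 for Mrps17. Over the 76 members, these deviations had a Pearson r of 0.098 and a Spearman rho of 0.11 with the GC content of the longest coding transcript, and a rho of 0.0027 with its length. Over the 12706 genes with such a transcript, rho with GC content was 0.39. These correlations are across genes of 1 library, which share its depth and preparation. The fold change itself had a rho of -0.014 with GC content over the members and -0.18 over all genes. Split into GC classes of 26, 25 and 25 members from low to high, 24, 21 and 22 were above 0, where the shares over all genes in these classes were 59.6%, 46.9% and 40.8%.

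**Figure D4:**
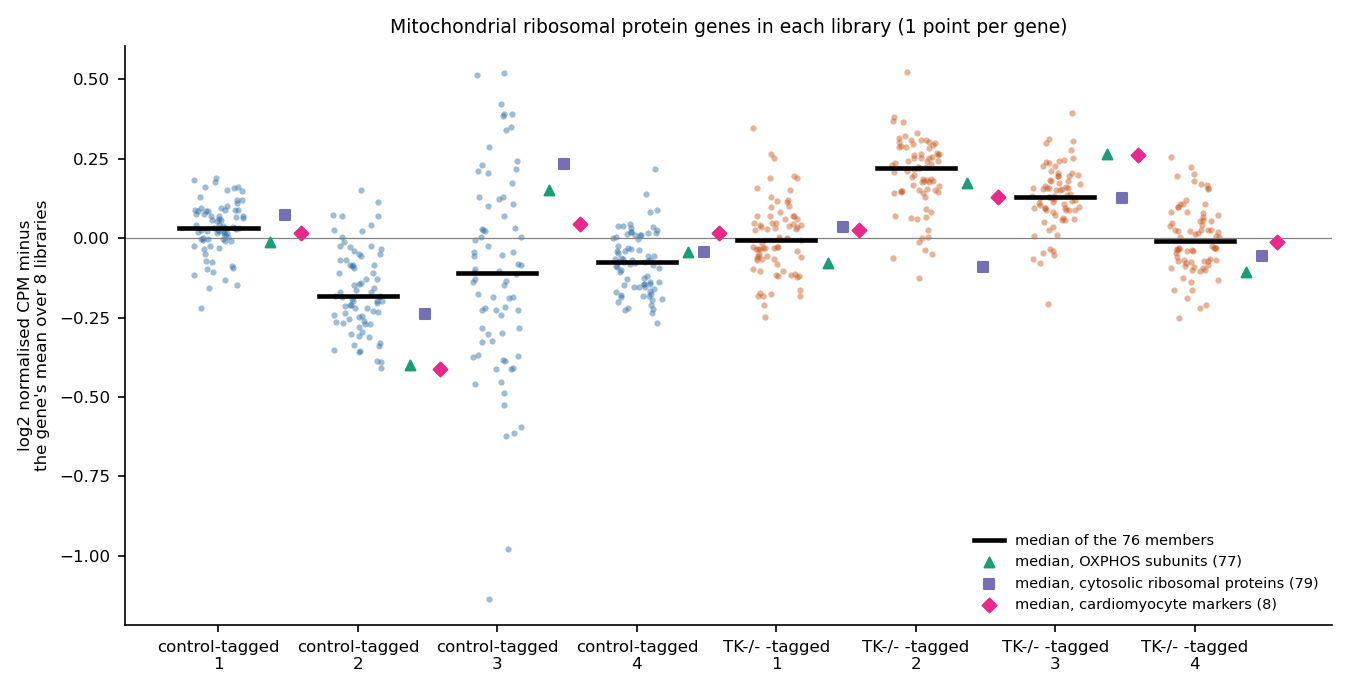
Log2 normalised CPM of each of the 76 members minus its mean over the 8 libraries (y axis), by library. Points are genes, black lines the members' median, and triangles, squares and diamonds the medians of OXPHOS subunits, cytosolic ribosomal proteins and cardiomyocyte markers. The members' median is lowest in control-tagged replicate 2 and highest in TK-/- -tagged replicate 2, and the points of control-tagged replicate 3 spread widest.

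By library, the members' median deviation was 0.032, -0.18, -0.11 and -0.076 in control-tagged replicates 1 to 4. It was -0.0055, 0.22, 0.13 and -0.010 in TK-/- -tagged replicates 1 to 4. The groups overlapped, since control-tagged replicate 1 lay above TK-/- -tagged replicates 1 and 4. TK-/- -tagged replicate 2 was the highest library for 48 members, and control-tagged replicate 2 the lowest for 37. Without both of these libraries, a choice made after their values were seen, 56 of 76 members were above 0 and the median was 0.11. The number without overlap was then 12, against 5.17% of all genes with 3 against 3 libraries. Leaving out TK-/- -tagged replicate 2 alone gave 64 members above 0, a median of 0.13 and 6 members at an unadjusted p under 0.05, all higher, against 1.82% of all genes in that direction. Smaller groups overlap less often for any gene, so each count without overlap is set beside the share of all genes under the same setting. Leaving out control-tagged replicate 1 gave 19 members without overlap (4.33% of all genes) and 19 at that p, all higher (3.59%). Without TK-/- -tagged replicate 1 the number without overlap was 18 (4.21% of all genes), and without TK-/- -tagged replicate 4 it was 22 (5.13%). Total counts in place of TMM left 6 members at that p (2.27% of all genes in that direction).

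Most of these proteins are present in a single copy in each ribosome, and Mrpl12 in several. Their transcript levels per length spread widely. Normalised CPM per kb of exon, over all 8 libraries, ran over a range of 52.5-fold, with a median of 24.4. The median was 16.2 in the small and 25.9 in the large subunit, and 4.15 over all genes, and 75 of the 76 members lay above the last. Cytosolic ribosomal proteins had a median of 148 and OXPHOS subunits of 387 on the same scale. The highest members were Mrpl12 (155), Mrps23 (138), Mrps21 (126), Mrpl55 (99.4) and Mrpl28 (99.2). The lowest were Mrps10 (2.94), Mrpl32 (4.34), which is cut to its mature form in a step of ribosome assembly, Mrps22 (5.43), Mrpl47 (5.75) and Mrps5 (6.36). Lengths are the union of all annotated exons, which run to 8079 bases for Mrps10 against 1113 bases for its longest coding transcript, so a gene with long rare exons appears low on this scale.

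**Figure D5:**
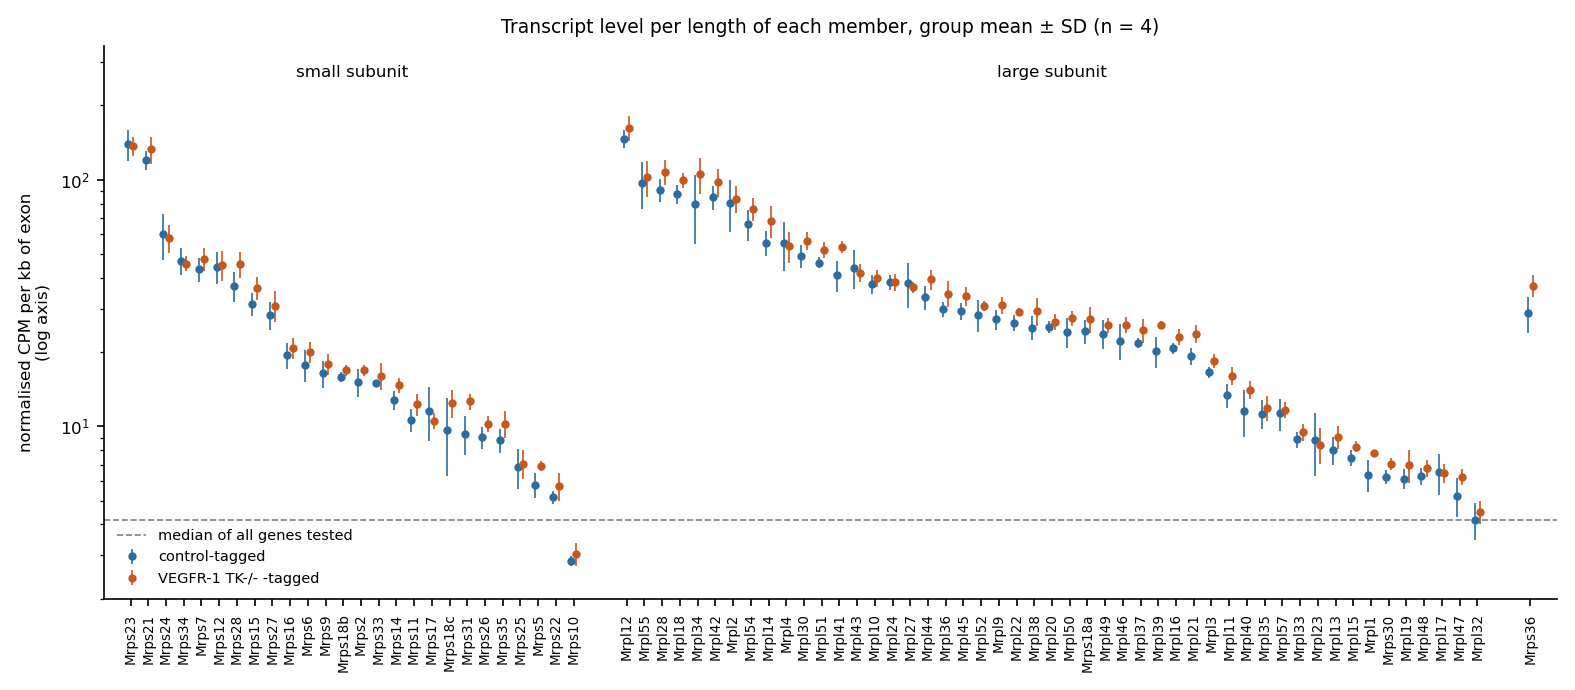
Normalised CPM per kb of exon (y axis, log scale) of each member by subunit, ordered by level. Points are group means and bars are SD (n = 4) for control-tagged and TK-/- -tagged libraries, and the dashed line is the median of all genes tested, 4.15. Levels run from 2.94 for Mrps10 to 155 for Mrpl12.

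Neighbours in this order mostly overlapped. Of the 75 pairs of adjacent members, 1 was separate in both groups, with every library of Mrpl32 above every library of Mrps10 of the same group. Mrpl55 had 96.6 ± 20.9 and 102 ± 17.2 normalised CPM per kb (SD, n = 4) in the control-tagged and TK-/- -tagged groups, and Mrpl28, next to it, 90.9 ± 9.65 and 108 ± 12.4. Mrpl12 at the top had 146 ± 12.5 and 163 ± 19.1, and Mrps10 at the bottom 2.84 ± 0.135 and 3.05 ± 0.321. The distance between the ends is thus far larger than the spread within groups. Within groups, the members' SD of log2 normalised CPM had a median of 0.16, against 0.21 over all genes. The most variable were Mrps18c (0.46), Mrpl34 (0.41) and Mrpl23 (0.33), and the least variable Mrps18b (0.071), Mrpl22 (0.081) and Mrpl3 (0.083).

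Members lie on 17 chromosomes, with 10 on chromosome 11 and 8 on chromosome 17, and the nearest to Flt1 on chromosome 5, Mrps17, is 17.8 Mb away. Of the 76, 33 (43.4%) start within 1000 bases of a protein-coding gene on the other strand that runs the opposite way. Of the 12706 protein-coding genes tested, 15.7% do. Mrps11 and Mrpl46, whose shared start region of 41 bases is printed above, had nearly equal log2 fold changes of 0.22 (SE 0.11) and 0.22 (SE 0.12). They parted in control-tagged replicate 3, with log2 deviations from their own means of 0.069 for Mrps11 and -0.49 for Mrpl46. In control-tagged replicates 1, 2 and 4, Mrps11 was lower than Mrpl46, at -0.034, -0.24 and -0.22 against 0.064, 0.041 and -0.076. The near equality of the fold changes thus averages over libraries in which the genes differed in opposite directions. The 25 partners that were tested and are not members had log2 fold changes above 0 in 16 cases, with a median of 0.036, where the 33 members themselves had a median of 0.18. The 43 members without such a partner had a median of 0.15. Of the 25 partners, 2 were without overlap, against 2.46% of all genes in that direction. They were Ndufb5, a complex I subunit sharing exon bases with Mrpl47, and Sars2, the mitochondrial seryl-tRNA synthetase beside Mrps12.

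Strand was not stated for the counting, so reads of genes that overlap on opposite strands cannot be told apart. Of the 76 members, 31 share exon bases with another gene, 7 of them on the same strand. The other 45 had 40 log2 fold changes above 0, a median of 0.16 and 8 members without overlap, against 2.46% of all genes. Among the members without overlap, Mrpl21 shares 117 bases with Ighmbp2 and Mrps30 shares 623 with B430218F22Rik, both on opposite strands. Of the pairs named above, Mrpl47 shares 616 bases with Ndufb5 and Mrps11 shares 173 with Mrpl46, also on opposite strands. Mean normalised CPM in the control-tagged group was 329 for Ndufb5 and 23.2 for Mrpl47. Processed copies named Mrpl23-ps1, Mrpl48-ps and Mrps36-ps1 to Mrps36-ps3 had at most 8 counts in any library, and reads shared with them are uncertain.

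The rest of mitochondrial translation was described through lists of other genes. Of the 6 ribosomal proteins with other names (Dap3, Ptcd3, Chchd1, Aurkaip1, Gadd45gip1 and Ict1), 6 had log2 fold changes above 0 with a median of 0.21. Of 12 translation factors, 9 were above 0 (median 0.11), and of 22 enzymes that charge mitochondrial tRNAs, 21 (median 0.065). Of 26 assembly factors and ribosomal RNA modifiers, 21 were above 0 (median 0.12), and of 15 genes of mitochondrial transcription and mRNA handling, 13 (median 0.14). Over the 5 lists, 70 of 81 genes were above 0 and the median was 0.12. In this direction 8 of them (9.88%) were at an unadjusted p under 0.05, against 3.32% of all genes. None of the 81 had an FDR under 0.1 in edgeR's quasi-likelihood test.

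Of these 81 genes, 4 (4.94%) were without overlap, against 2.46% of all genes. Mettl17, a methyltransferase-like assembly factor of the small subunit, had 14.8, 14.6, 16.3 and 16.2 normalised CPM in the control-tagged and 17.6, 20.1, 19.3 and 18.3 in the TK-/- -tagged replicates (log2 fold change 0.28, SE 0.10). Ftsj2, which methylates the large ribosomal RNA, had 11.5, 10.02, 11.4 and 10.48 against 11.8, 13.4, 14.7 and 13.9 (0.31, SE 0.12). Gatc, a subunit of the amidotransferase that makes glutaminyl-tRNA, had 25.2, 26.9, 25.7 and 25.3 against 27.1, 29.3, 29.2 and 28.8 (0.15, SE 0.084). For Sars2 the log2 fold change was 0.17 (SE 0.11). Of the 4, only Sars2 had control-tagged replicate 3 as its lowest library.

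OXPHOS subunits encoded in the nucleus had 64 of 77 log2 fold changes above 0 and a median of 0.13. In edgeR's quasi-likelihood test 13 of them (16.9%) were higher at an unadjusted p under 0.05, against 3.32% of all genes. The 4 without overlap (5.19%, against 2.46% of all genes) were Ndufb5, Ndufc2, Ndufv2 and Uqcrb. In each of these 4, control-tagged replicate 3 was the lowest library. The cytosolic ribosome did not show this lean, with 35 of 79 above 0, a median of -0.013 and 1 gene without overlap, Rps27. Library by library, the medians of OXPHOS subunits were -0.011, -0.40, 0.15 and -0.044 in the control-tagged and -0.078, 0.17, 0.27 and -0.11 in the TK-/- -tagged replicates. Like the members, they were lowest in control-tagged replicate 2, but they were above 0 in control-tagged replicate 3, where the members' median was -0.11.

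Markers of cell types were set beside these values. Of 8 ventricular cardiomyocyte markers, 6 had log2 fold changes above 0, with a median of 0.18, and their summed level ran from 64859 to 101071 normalised CPM in the control-tagged and from 83628 to 104016 in the TK-/- -tagged libraries. The lowest sum was that of control-tagged replicate 2, the library in which the members were lowest. A sum gives most weight to the most abundant markers, and by it the other libraries did not follow the members' order. TK-/- -tagged replicate 2, in which the members were highest, had a sum of 89758. Control-tagged replicate 3, in which the members' median was -0.11, had 101071. By median deviation, the measure used for the members, the markers had 0.017, -0.41, 0.046 and 0.016 in the control-tagged replicates. In the TK-/- -tagged replicates they had 0.025, 0.13, 0.26 and -0.012. On this measure control-tagged replicate 2 was again lowest. TK-/- -tagged replicates 3 and 2 were highest, with control-tagged replicate 3 next. Medians were -0.29 for endothelium (4 of 5 below 0), -0.39 for fibroblasts (5 of 5), -0.31 for leukocytes (4 of 5) and -0.37 for red blood cells (5 of 5). Summed fibroblast markers ran from 1453 to 2343 and from 713 to 1927, and summed endothelial markers from 1079 to 1397 and from 982 to 1126. Summed leukocyte markers ran from 106 to 143 and from 73.8 to 112, and those of red blood cells from 309 to 766 and from 359 to 601. Median deviations by library follow, for control-tagged replicates 1 to 4, then TK-/- -tagged replicates 1 to 4. Fibroblast markers had 0.34, 0.61, 0.0059 and 0.00063, then 0.43, -0.47, -1.25 and 0.21. Endothelial markers had -0.098, 0.23, 0.26 and 0.20, then -0.10, -0.36, -0.11 and -0.025. Leukocyte markers had 0.079, 0.22, 0.26 and -0.14, then 0.039, -0.48, -0.45 and 0.087. Red blood cell markers had -0.59, 0.68, 0.77 and -0.22, then -0.55, 0.35, -0.16 and -0.29. No marker of these lists had an FDR under 0.1 in edgeR's quasi-likelihood test. At an unadjusted p under 0.05 in that test, 2 cardiomyocyte markers were higher, and 3 endothelial markers and 1 leukocyte marker were lower. Over all genes, 8.96% passed this p in either direction. Only Pln, a cardiomyocyte marker, was without overlap in these lists (log2 fold change 0.32, SE 0.14), against 2.46% of all genes in that direction. Atrial markers summed to 3.68 to 5.90 normalised CPM with Sln below the filter. Of the 5 skeletal muscle markers, the myosins Myh1, Myh2 and Myh4 did not pass the filter and Tnnt3 had 6 to 21 counts. The remaining one, Acta1, encodes skeletal alpha-actin, which heart muscle also expresses. It had 4102, 6958, 4893 and 3125 normalised CPM in the control-tagged replicates against 1582, 1854, 1456 and 1811 in the TK-/- -tagged replicates. Its groups did not overlap, and the log2 fold change was -1.51 (SE 0.22, FDR = 0.152, edgeR's quasi-likelihood test). Of the adipocyte genes, Adipoq, Plin1 and Lep did not pass the filter, and Fabp4, which endothelium also expresses, had a log2 fold change of -0.047 (SE 0.14). All 8 ventricular markers were detected in every library. The part of cell composition in the members' fold changes was not tested.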

How the data were processed

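LV RNA of 8 mice, 4 per group, was sequenced. Per the labels and the paper's methods, the authors trimmed reads with Trim Galore 0.4.4, aligned them to GRCm38 with STAR 2.5.4b, keeping reads with up to 10 alignments, and counted them per GENCODE gene with featureCounts. The authors deposited raw counts, not normalized. The labels describe depletion of ribosomal RNA and the methods poly-A selection, which changes how RNA without a tail is sampled. Library names refer to cardiomyocytes and the source to LV tissue. How featureCounts treated strand and reads with several alignments is not given in the sources used here, and either can add reads of overlapping genes or copies to a member.

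The 13542 genes that reached a CPM of 1 in 2 or more libraries were fitted with edgeR 4.0.16 in R 4.3.3: TMM factors (0.917 to 1.12), glmQLFit and glmQLFTest over all 8 libraries with no covariate, Benjamini-Hochberg over all genes. Logs of normalised CPM used a prior count of 2. DESeq2 1.42.0, the likelihood ratio test, RLE factors, total counts, other filters, robust dispersion, leaving out each library and the replicate block were tried as alternatives. Lengths, positions and transcripts came from GENCODE M21 (GRCm38), promoters from RefSeq, read in Python 3.11.15. Library pairs within a group differed by 6.77 to 49.95 times the sampling noise (chi-square per degree of freedom), so none was a copy. P-values cover the spread between these samples, which the sources do not say to be free of technical parts.

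The members, the gene lists and the tests were chosen with earlier results of these data known. Named members were those with an FDR under 0.1, the 5 with the highest and lowest log2 fold change, those without overlap of the groups, the 5 with the highest and lowest level per kb, the stalk, the exit, the Mrps18 paralogs, Mrps12, Mrpl3 and Mrpl44, and the 3 most and least variable within groups. Apart from cell type markers and ribosomal proteins with other names, genes of other lists were named only without overlap or at FDR under 0.1. Other members were named where a value or sequence turned on them.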

Additional observations from a re-analysis of the deposited data

Results flagged for a closer look

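In 70 groups of 4 libraries (35 named members in each of both groups), 1 library lay far from the other 3 of its group in 3 cases, by Dixon's test at its 95% critical value. Chance flags about 1 in 20 groups. Mrps36, the dehydrogenase component, had 27.3 normalised CPM in control-tagged replicate 3, against 39.3 to 39.9 in the other control-tagged libraries. Mrps18a had 75.0 in control-tagged replicate 2, against 92.7 to 95.8. Mrpl27 had 38.95 in TK-/- -tagged replicate 3, against 34.9 to 35.3.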

How the results depend on the processing

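No member was called under any of the alternatives run. The median log2 fold change of the members ran from 0.11 to 0.19, and the number above 0 from 56 to 75, each over all alternatives. Members without overlap numbered 7 with total counts (1.83% of all genes) and 9 to 22 when 1 library was left out, where 3.11% to 5.13% of all genes were without overlap in that direction. Of 595 values of 35 named members under alternatives, 566 kept their sign and 29 did not. With 1 library left out, the log2 fold changes ran from -0.23 to 0.043 for Mrps17, -0.15 to 0.043 for Mrpl43, -0.20 to 0.12 for Mrpl23, -0.15 to 0.078 for Mrpl27, -0.16 to 0.084 for Mrps24, -0.086 to 0.061 for Mrps23, -0.026 to 0.20 for Mrpl55, -0.012 to 0.17 for Mrpl32, -0.055 to 0.045 for Mrpl24, -0.069 to 0.13 for Mrpl17 and -0.047 to 0.097 for Mrps12. The cause of these reversals was not tested beyond the libraries left out. Total counts gave -0.012 for Mrpl24. Without replicate 2 of both groups, chosen after the values were seen, Mrpl55 was at -0.084, Mrpl10 at -0.039, Mrpl24 at -0.028 and Mrps12 at -0.12.

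With the replicate number as a block, the median was 0.17, 68 members were above 0 and Mrpl17 reversed to 0.0086. At an unadjusted p under 0.05 in edgeR's quasi-likelihood test, 12 members passed, all higher, against 3.43% of all genes in that direction. Same-numbered libraries deviated with correlations of -0.029, 0.029, 0.34 and -0.056, and differently numbered pairs across the groups ran from -0.49 to 0.30. These values cannot settle whether same-numbered samples share more than a number, such as a batch. The least abundant member had 76 counts in 1 library. With 4 libraries a group and a median SE of 0.11, log2 fold changes of the size of the members' median were not detectable gene by gene.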
